A study of Mus musculus with 8 samples.

Results

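The epidermis of C57BL/6 mouse embryos at embryonic day 18.5 (E18.5) was compared between 1 control library, labelled Cyp26b1f/+, and 1 library labelled En1cre;Cyp26b1f/-. These are 2 of the 8 samples in the study. The other 6 are a dermis pair of the same 2 genotypes at E18.5, from embryos with other numbers in the labels, and 4 whole-skin libraries at E16.5, 2 wild type and 2 Cyp26b1-/-. Each value is an FPKM, fragments per kilobase of transcript, scaled to the number of mapped fragments. A gene was kept when it reached 1 FPKM in at least 1 of the epidermis libraries and had no row whose estimate failed, which left 11362 of 21882 gene symbols. Another 194 symbols were dropped for such a row, and the rest were below the minimum. The design text speaks of duplicates, while the 8 samples hold 1 epidermis library per genotype. How epidermis was separated from dermis is not given in the sources used here.

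Cyp26b1 encodes a cytochrome P450 enzyme that oxidises retinoic acid and so limits its signal, which is carried by nuclear receptors bound to DNA. En1cre expresses Cre recombinase from the Engrailed 1 locus and acts in cells with a history of Engrailed 1 expression, among them trunk dermal cells. In the embryo labelled En1cre;Cyp26b1f/-, one Cyp26b1 allele is null in every cell and the floxed allele is the substrate of Cre. The control carries 1 floxed and 1 wild-type allele, without Cre in its label. Loss of a Cyp26b1 allele and Cre activity therefore cannot be told apart here. The epidermis renews from basal keratinocytes on the basement membrane. Their daughters pass through the spinous and granular layers and end as cornified cells, whose protein envelope and extracellular lipids form the barrier. Hair follicles grow down from the same epithelium, and Langerhans cells, antigen-presenting cells of the immune system, lie between its keratinocytes.

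With 1 library per group there is no replicate check, no test of genotype and no p-value. The size of a difference is log2((labelled mutant + 1)/(control + 1)) in FPKM, minus its median over the kept genes, which was -0.178 before subtraction. A positive value is higher in the library labelled mutant, and a difference of 1 is 2-fold. By this measure 396 genes were at least 2-fold higher, 3.49% of those kept, and 552 were at least 2-fold lower, 4.86%. These 2 shares are the background for each count of list genes past 2-fold given below. Without subtracting the median the split was 260 higher and 915 lower, and with the median of genes of at least 10 FPKM subtracted it was 274 and 853. The middle of the distribution had quartiles at -0.36 and 0.34.

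Facts that bear on all of these values come first. Xist, the non-coding RNA expressed from the inactive X chromosome of females, was 10.03 FPKM in the control and 0.02 in the library labelled mutant. The Y-linked genes Eif2s3y (0.13 and 4.62 FPKM) and Kdm5d (0.04 and 1.91) went the other way. Genotype and sex of the embryo therefore cannot be told apart. The step between the lowest values of single-exon receptor genes gave a rough depth of 23 M fragments (M, 1e6) for the control and 33 M for the library labelled mutant, from only 33 and 13 values. The fold varied with level: its median was -0.24 for the 1525 genes below 2 FPKM and 0.27 for the 835 genes between 50 and 100 FPKM. Level here is the higher of the 2 libraries. Of the 908 genes between 100 and 1000 FPKM, 8.7% were at least 2-fold higher and 4.07% at least 2-fold lower. The fold also had a Spearman correlation of 0.22 with transcript GC content over 10907 genes, and genes are no replicates. In the authors' deposited table, the test statistic implied a model standard error with a median of 0.50 on the log2 scale for transcripts between 10 and 100 FPKM. Level for this error is the mean of the 2 libraries. The median was larger elsewhere: 0.78 between 1 and 2 FPKM, 0.55 between 2 and 10, 0.57 between 100 and 1000, and 0.77 from 1000 FPKM. That error belongs to the authors' model of 2 libraries, and it holds no spread between embryos.

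The tissue label was checked against defining markers. Terminal differentiation genes were abundant in both libraries, with Krtdap at 6811 and 5419 FPKM and Dmkn at 8003 and 8999. Krt1, Krt10, Lor and Sbsn, further markers of suprabasal cells, had failed estimates in at least 1 library and are not used. The 7 basal keratinocyte markers summed to 5740 FPKM in the control and 1873 in the library labelled mutant. Genes of other cells were detectable. The 7 fibroblast markers summed to 324 FPKM in the control and 61.1 in the library labelled mutant, and all 7 were lower in the latter. The 6 skeletal muscle markers summed to 72.4 and 41.8 FPKM, the 4 endothelial markers to 2.33 and 0.61, and the 4 erythroid markers to 307 and 294. Fewer cells of a type and less RNA per cell cannot be told apart in such samples.

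**Figure D1:**
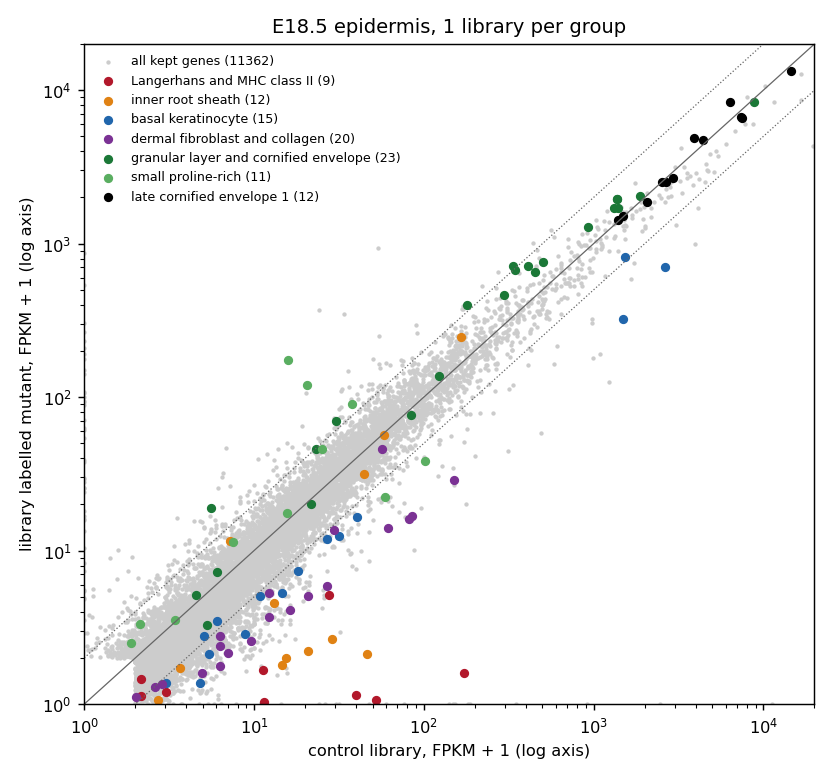
Every kept gene by its FPKM + 1 in the control library (horizontal, log axis) and in the library labelled mutant (vertical, log axis), with 7 gene lists in colour and their numbers of kept members. The solid line is equality and the dotted lines are 2-fold either way, before centring. Most MHC class II and inner root sheath genes lie below the lower dotted line, while the late cornified envelope genes, in black, lie along equality at the upper end.

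Sequences just upstream of a few genes are shown first, because the genes concerned belong to lists described here and are textbook cases of shared promoter elements. MHC class II promoters hold an X box and a Y box, at which the coactivator Ciita is recruited. The 300-base windows below come from RefSeq on GRCm38.p6, and each runs from 250 bases before the gene's start to 50 bases after it. Capitals mark GATTGG, the core of the Y box, and AACNGATG, part of an X box, on either strand. H2-Aa is the window chr17:34287774-34288073 on the minus strand, H2-Eb1 is chr17:34305617-34305916 on the plus strand, and H2-DMb1 is chr17:34152941-34153240 on the plus strand.
H2-Aa: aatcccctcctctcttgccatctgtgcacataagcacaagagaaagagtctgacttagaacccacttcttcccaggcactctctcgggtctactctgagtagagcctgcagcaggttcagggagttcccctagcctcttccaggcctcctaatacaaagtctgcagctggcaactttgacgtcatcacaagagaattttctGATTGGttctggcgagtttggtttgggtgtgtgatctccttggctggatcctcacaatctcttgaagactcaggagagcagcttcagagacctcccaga
H2-Eb1: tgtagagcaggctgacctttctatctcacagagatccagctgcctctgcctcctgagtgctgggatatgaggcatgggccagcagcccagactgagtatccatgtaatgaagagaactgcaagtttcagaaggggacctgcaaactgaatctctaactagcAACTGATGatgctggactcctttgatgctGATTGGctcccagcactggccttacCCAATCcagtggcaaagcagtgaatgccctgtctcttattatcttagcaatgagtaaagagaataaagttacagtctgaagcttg
H2-DMb1: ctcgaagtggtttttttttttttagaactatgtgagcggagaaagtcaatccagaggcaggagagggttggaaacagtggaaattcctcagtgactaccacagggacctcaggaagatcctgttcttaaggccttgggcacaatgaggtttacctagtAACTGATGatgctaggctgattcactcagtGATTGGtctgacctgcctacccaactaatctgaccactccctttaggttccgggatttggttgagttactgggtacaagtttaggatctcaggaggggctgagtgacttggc

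The GATTGG match began 49 bases before the start in H2-Aa, 60 bases before it in H2-Eb1 and 62 bases before it in H2-DMb1. A second match in H2-Eb1, on the opposite strand, began 35 bases before the start. The AACNGATG match began 89 bases before the start in H2-Eb1 and 92 bases before it in H2-DMb1, and H2-Aa had none. The list of Langerhans and MHC class II genes is called the MHC class II list here. Windows were found for 5 of its 9 kept genes, among them Itgax, which is not a class II gene. Of these 6 windows 4 held GATTGG and 2 held AACNGATG. Over all 32851 windows in the table the shares were 16.1% and 2.32%. H2-Ab1, Cd74 and Ciita had no window in this table.

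Involucrin and the small proline-rich proteins are cornified envelope precursors whose promoters are known for AP-1 sites. Capitals mark TGANTCA, the AP-1 motif with its middle base free. Ivl is the window chr3:92573686-92573985 and Sprr1b is chr3:92438730-92439029, both on the minus strand.
Ivl: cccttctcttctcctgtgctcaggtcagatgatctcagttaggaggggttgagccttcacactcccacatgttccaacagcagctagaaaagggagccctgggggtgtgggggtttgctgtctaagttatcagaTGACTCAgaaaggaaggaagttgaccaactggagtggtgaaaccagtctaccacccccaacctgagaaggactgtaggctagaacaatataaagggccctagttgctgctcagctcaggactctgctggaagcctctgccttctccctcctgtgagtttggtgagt
Sprr1b: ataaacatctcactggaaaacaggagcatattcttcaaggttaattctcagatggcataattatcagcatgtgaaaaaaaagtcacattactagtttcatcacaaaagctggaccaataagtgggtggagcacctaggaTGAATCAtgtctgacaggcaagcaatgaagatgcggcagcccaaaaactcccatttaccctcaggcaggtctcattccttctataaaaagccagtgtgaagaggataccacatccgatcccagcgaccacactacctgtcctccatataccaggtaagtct

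The match began 116 bases before the start of Ivl and 111 bases before that of Sprr1b. It was present in 8 of 10 windows, found for 10 of the 11 small proline-rich genes kept, including Sprr1a, which was lower in the library labelled mutant, and in 7.81% of all windows. Of 17 windows for 15 genes of the granular and cornified envelope list 5 held it, as did 1 of 12 windows of the basal keratinocyte list and 0 of 10 of the inner root sheath list. In the MHC class II list, whose members were lower, 3 of 6 windows held it, those of H2-DMa, H2-DMb1 and Itgax. A match describes these letters in this window and is neither a binding site nor a cause.

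Among the 15 lowest ranked genes, which leave out short RNAs and symbols with several transcripts, 5 were of the MHC class II family. MHC class II molecules carry peptides to the surface of antigen-presenting cells. All 9 kept members of the MHC class II list of 11, which also holds Itgax and Cd1d1, were lower in the library labelled mutant. Of them 7 were at least 2-fold lower, against 4.86% of all genes, and their median was -2.58. Cd74, the invariant chain that guides class II molecules, was 172.2 FPKM in the control and 0.59 in the library labelled mutant, a log2 difference of -6.59. H2-Ab1 (chr17:34400172-34406363 on mm9), a beta chain, was 51.53 and 0.07 FPKM, a difference of -5.44. H2-Aa, an alpha chain, was 38.85 and 0.14 FPKM, a difference of -4.95. The control stood above the library labelled mutant in each of these chains, in which the latter held less than 1 FPKM.

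H2-Eb1 was 10.43 and 0.03 FPKM, a difference of -3.29, and the pseudogene H2-Ea-ps was 13.43 FPKM and listed at 0. H2-DMa and H2-DMb1, which exchange peptides on class II molecules, were 26.72 and 4.16 FPKM and 10.24 and 0.66 FPKM, differences of -2.25 and -2.58. Ciita, the master coactivator of these genes, was 2.02 and 0.2 FPKM, a difference of -1.15. The genes for the integrin Itgax (1.16 and 0.13 FPKM) and the lipid-presenting Cd1d1 (1.16 and 0.46) were within 2-fold on this scale. Cd207, which encodes langerin and defines Langerhans cells, was below the filter, at 0.39 FPKM in the control and 0 in the library labelled mutant. So the class II genes were abundant in the control epidermis while the defining Langerhans marker was near 0.

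In the dermis libraries, fitted and centred the same way in their own table, the class II genes lay near the middle. H2-Aa was 5.02 FPKM in control dermis and 5.23 in dermis labelled mutant, H2-Ab1 15.29 and 13.08, and Cd74 39.18 and 28.97. The median over 7 kept members was -0.05 there and -0.34 in E16.5 whole skin. The difference between the tables was not tested.

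Other immune genes in the epidermis were lower by less. The 12 kept macrophage genes had a median of -0.82, with all 12 below 0. Of them 4 were at least 2-fold lower, against 4.86% of all genes. Tyrobp, an adaptor of activating receptors, was 70.29 and 16.97 FPKM, a difference of -1.81. The complement gene C1qa was 52.61 and 20.63 FPKM, a difference of -1.13, and Csf1r, the receptor for macrophage growth factor, 24.99 and 10.81 FPKM, a difference of -0.96. Of 6 kept mast cell genes 3 were at least 2-fold lower, against the same 4.86%. Cma1, a chymase of mast cell granules, was 8.96 and 1.88 FPKM, and Tpsb2, a tryptase, 8.02 and 1.05 FPKM. Alox5 (3.81 and 0.38 FPKM) and Alox5ap (18.51 and 3.69), which start leukotriene synthesis, had differences of -1.62 and -1.88. The T cell markers Cd3d, Cd3e and Cd3g summed to 2.96 and 1.37 FPKM.

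**Figure D2:**
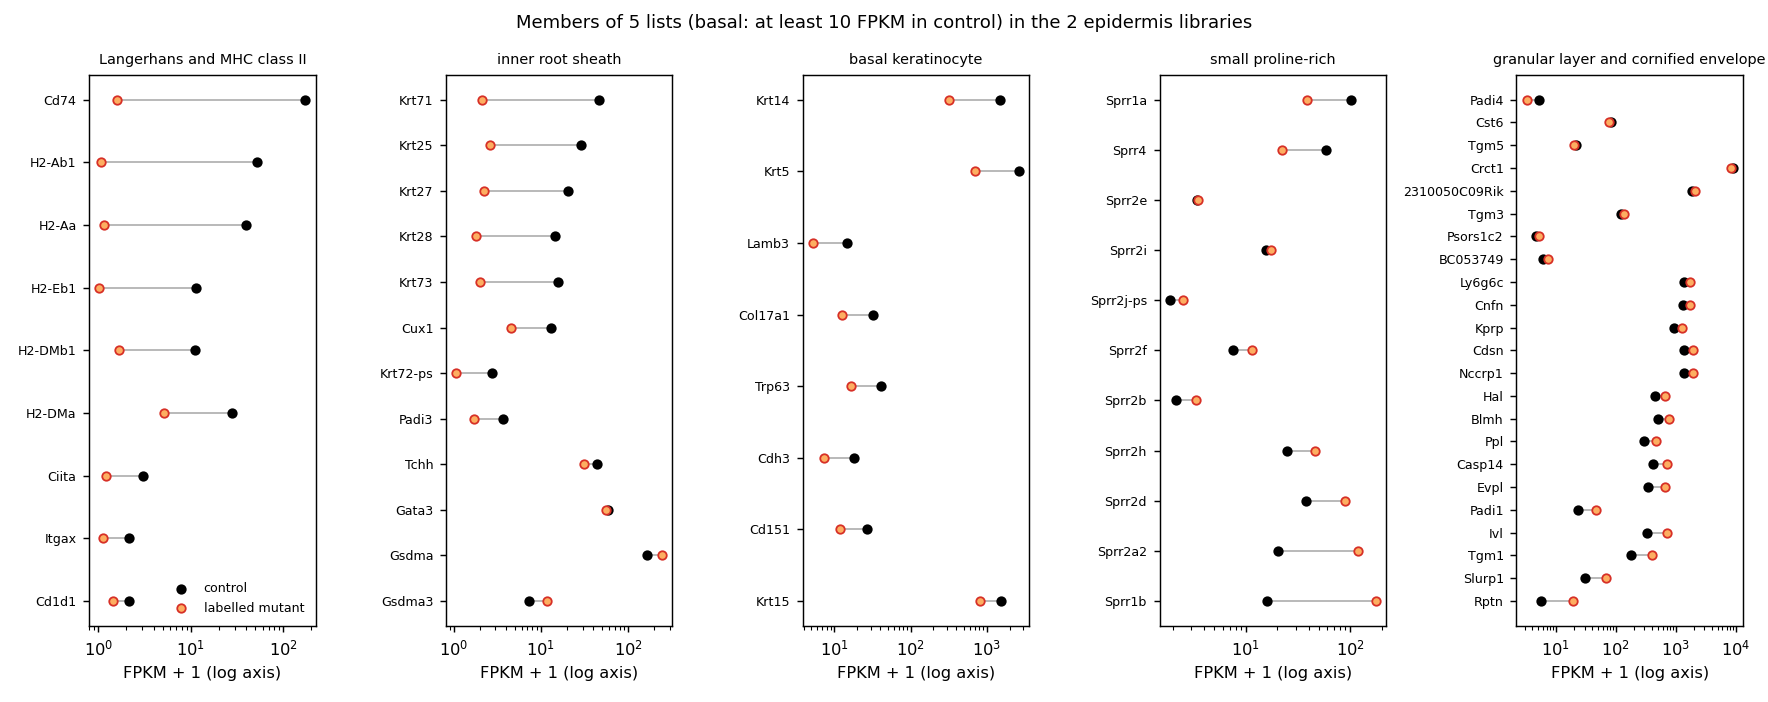
Kept members of 5 lists (of the basal keratinocyte list, the 8 with at least 10 FPKM in the control) by its FPKM + 1 (log axis) in the control library (black) and the library labelled mutant (orange). All 9 class II list members and the 8 basal keratinocyte genes drawn sit lower in the library labelled mutant, whereas most granular and small proline-rich genes sit higher.

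Hair follicle genes were the next group. The inner root sheath is the rigid sleeve that moulds the growing hair, and it is built from its own set of keratins. Of 12 kept members of that list of 15, 7 were at least 2-fold lower and none was 2-fold higher, with a median of -1.26. Krt71 (chr15:101564380-101573528 on mm9), a type II keratin, was 45.32 FPKM in the control and 1.11 in the library labelled mutant, a difference of -4.28. Its type I partners Krt25 (27.78 and 1.64 FPKM), Krt27 (19.66 and 1.23) and Krt28 (13.65 and 0.8) had differences of -3.27, -3.03 and -2.85. Krt73 was 14.5 and 1.0 FPKM, a difference of -2.78. All 5 of these keratins were at or below 1.64 FPKM in the library labelled mutant.

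Other inner root sheath genes stood apart from the keratins. Tchh, the trichohyalin that fills and hardens inner root sheath cells, was 43.16 and 30.53 FPKM, a difference of -0.31. Gata3, a transcription factor of the sheath and of the epidermis, was 57.32 and 55.33 FPKM, a difference of 0.13. The gasdermin genes Gsdma (164.8 and 243.9 FPKM) and Gsdma3 (6.23 and 10.61) were higher, by 0.74 and 0.86. Cux1, a transcription factor of the sheath lineage, was 12.14 and 3.59 FPKM, a difference of -1.34. Padi3, which converts arginine to citrulline in trichohyalin, was 2.66 and 0.72 FPKM, a difference of -0.91, and the pseudogene Krt72-ps was 1.73 and 0.07 FPKM.

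Hair shaft keratins were low in the control and lower still in the library labelled mutant. Krt35, an early shaft keratin, was 12.62 and 0.55 FPKM, a difference of -2.96, and Krt85 was 4.3 and 0.21 FPKM, a difference of -1.95. Of 9 kept members 3 were at least 2-fold lower, and the median was -0.87. Krt32, a cuticle keratin, was 11.84 and 5.78 FPKM. Krt34 was the single member above 0, at 1.47 and 2.23 FPKM. Most keratin-associated protein genes, 45 of 51, were below the filter in both libraries. Among the 6 kept, Krtap3-2 (25.05 and 23.01 FPKM) and Krtap3-3 (19.21 and 16.85) had differences of 0.06 and 0.00, whereas Krtap22-2 (2.35 FPKM), Krtap17-1 (1.55) and Krtap4-8 (1.38) were listed at 0 in the library labelled mutant.

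Of 18 kept follicle transcription factor and stem cell genes, 8 were at least 2-fold lower, with a median of -0.96. Foxi3, a factor of the hair placode, was 12.94 and 1.59 FPKM, a difference of -2.25. Lhx2, which marks follicle progenitors, was 8.25 and 1.05 FPKM, a difference of -2.0, and Sox21, a factor of the hair cuticle, 9.01 and 1.33 FPKM, a difference of -1.92. Lgr6 (2.65 and 0.22 FPKM), Msx1 (2.12 and 0.06), Lef1 (9.03 and 2.5), Tcf7l1 (4.6 and 1.23) and Hoxc13 (2.08 and 0.35) made up the rest of the 8. Foxn1, which drives hair keratin expression, was 14.45 and 12.13 FPKM, a difference of -0.06. Dlx3 (56.99 and 73.31 FPKM) and Barx2 (217.2 and 280.2), which are also expressed between follicles, were both higher by 0.54.

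Some signals that build follicles were lower. Shh, the ligand secreted by the hair bud, was 3.79 and 0.49 FPKM, a difference of -1.51. Ptch1, its receptor and transcriptional target, was 14.23 and 1.84 FPKM, a difference of -2.24, and Gli1, another target, 18.74 and 7.86 FPKM, a difference of -0.98. The median over the 9 kept Hedgehog genes was -0.88, with 2 at least 2-fold lower. Among 15 kept Wnt inhibitors and targets, 6 were at least 2-fold lower, among them Ccnd1, a cyclin of the G1 phase, at 14.85 and 4.07 FPKM, and Sostdc1, a secreted inhibitor, at 32.14 and 12.75 FPKM. None of the 12 kept Wnt ligands passed 2-fold either way, a count near the shares of all genes (3.49% higher and 4.86% lower). Their median was -0.66, with 9 of the 12 below 0. Of 15 kept Notch genes, 4 were at least 2-fold lower, including the genes of the ligands Dll1 and Jag2 (11.12 and 3.91 FPKM for the latter), and the receptor gene Notch3 was higher, at 52.38 and 95.83 FPKM.

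The keratins of companion layer, outer root sheath and wounded epidermis were mostly lower. Of 8 kept, 6 were at least 2-fold lower and 1 was 2-fold higher, with a median of -1.59. Krt16 was 199.2 and 40.38 FPKM, a difference of -2.10, and its partners Krt6a (147.5 and 33.73) and Krt6b (36.99 and 6.91) had differences of -1.92 and -2.09. Krt17, the type I keratin of the outer root sheath, was 983.4 and 303.1 FPKM, a difference of -1.52. Krt79, of the follicle funnel and sebaceous duct, was 586.1 and 163.7 FPKM, a difference of -1.66, and Krt75, of the companion layer, 2.03 and 0.1 FPKM. The exceptions were Krt78 (360.4 and 647.2 FPKM, a difference of 1.02) and Krt80 (305.9 and 423.4, a difference of 0.65), which are keratins of late differentiation.

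Basal keratinocyte genes were lower without exception. All 15 members of the list were kept, all 15 were below 0, 10 were at least 2-fold lower and the median was -1.12. Krt14 (chr11:100064476-100068824 on mm9), a defining basal keratin, was 1496 FPKM in the control and 321.7 in the library labelled mutant, a difference of -2.04. Its partner Krt5 was 2634 and 704.3 FPKM, a difference of -1.72. Krt15, of basal and stem cells, was 1525 and 815.1 FPKM, a difference of -0.72. Trp63, the transcription factor that maintains stratified epithelium, was 39.69 and 15.55 FPKM, a difference of -1.12.

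The genes of attachment to the basement membrane were lower by similar amounts. Itga6, an integrin of the hemidesmosome, was 3.78 and 0.37 FPKM, a difference of -1.62, and Itgb1, the integrin of focal adhesions, 4.46 and 1.12 FPKM, a difference of -1.19. Col17a1, a transmembrane collagen of hemidesmosomes, was 30.87 and 11.52 FPKM, a difference of -1.17. The laminin gene Lamb3 (13.62 and 4.28 FPKM) had a difference of -1.29, and Lama3 (4.04 and 1.79 FPKM) one of -0.67. Itga3 was nearest to the median of all genes, at 5.02 and 2.49 FPKM, a difference of -0.61.

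Proliferation genes, which basal cells express, were lower by a smaller amount. The 28 kept cell cycle genes had a median of -0.58, and only Pcna, the clamp of replicating DNA polymerase, passed 2-fold, at 47.18 and 19.59 FPKM, a difference of -1.05. In the dermis table the median of 32 such genes was 0.41 and at E16.5 it was 0.10. Basal keratinocyte markers were abundant in the dermis libraries as well. The 7 markers summed to 12396 FPKM in control dermis and 3797 in dermis labelled mutant. Among them Krt14 was 4276 and 1115 FPKM, and Krt5 6265 and 1806 FPKM. How much of the basal epithelium lay in the dermis samples was not tested. Each table was normalised by itself, so these levels are set beside those of epidermis and not compared with them. Whether the 2 epidermis samples were separated from dermis at the same plane was not tested.

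Dermal genes in these epidermis libraries were lower as well. Of 20 kept fibroblast and collagen genes 15 were at least 2-fold lower, and the median was -1.54. The chains of the main fibrillar collagens had nearly the same ratio, with Col1a1 at 148.8 and 27.73 FPKM, Col1a2 at 80.29 and 15.11, and Col3a1 at 84.73 and 15.7, differences of -2.20, -2.16 and -2.18. Sparc, a collagen-binding protein, was 60.28 and 13.06 FPKM, a difference of -1.95. Fbln1, of basement membranes and elastic fibres, was 55.41 and 44.84 FPKM, a difference of -0.12. In dermis the median of 20 members of this list was 0.94, the opposite sign. Col1a1, Col1a2 and Col3a1 had failed estimates in dermis and are not among those 20. With the genes of the dermal, muscle, vessel and immune lists left out, 510 genes were at least 2-fold lower and 396 higher. Whether the 2 libraries differed in dermal carry-over, and whether that bears on the lower basal, follicle and immune values, was not tested.

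**Figure D3:**
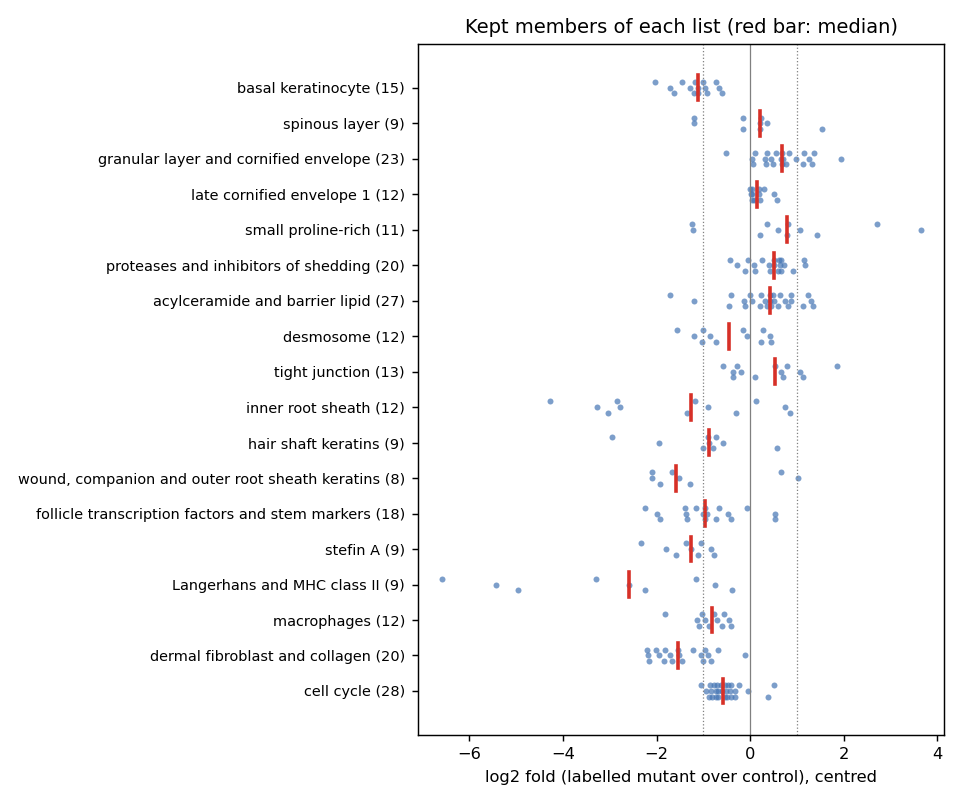
The centred log2 fold of every kept member (blue points) of 18 lists in the epidermis, with the number kept in brackets, the list median as a red bar, and dotted lines at 2-fold. The medians run from -2.58 for the MHC class II list to 0.78 for the small proline-rich list.

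Differentiation genes of the upper layers lay on the other side. Of 23 kept granular and cornified envelope genes, of 27 in the table, 6 were at least 2-fold higher, against 3.49% of all genes, and none was 2-fold lower. The share of all genes that were higher varied with level. It was 3.77% between 10 and 50 FPKM, 8.7% between 100 and 1000 FPKM and 2.34% from 1000 FPKM. The median of the list was 0.69, and 22 of the 23 were above 0. Rptn, repetin, an envelope protein of the S100-fused family, was 4.56 FPKM in the control and 17.95 in the library labelled mutant, a difference of 1.95. Ivl (chr3:92374824-92377637 on mm9), involucrin, the scaffold of the envelope, was 334 and 709.2 FPKM, a difference of 1.26. Tgm1, the transglutaminase that cross-links the envelope, was 178.2 and 397.6 FPKM, a difference of 1.33.

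Further members were higher by similar amounts. The plakin Evpl, envoplakin, was 342.6 and 668.7 FPKM, a difference of 1.14, and Padi1, a deiminase of cornifying cells, 22.22 and 44.97 FPKM, a difference of 1.16. Slurp1, a secreted peptide of the Ly6 family, was 29.29 and 68.4 FPKM, a difference of 1.37. Casp14, the protease that helps break down filaggrin, was 411.2 and 718.5 FPKM, a difference of 0.98. Abundant members differed less: Cdsn, corneodesmosin, was 1377 and 1964 FPKM, a difference of 0.69, and Crct1 8820 and 8407 FPKM, a difference of 0.11. Padi4 was the single member below 0, at 4.26 and 2.26 FPKM. Lor, Flg2, Hrnr and Asprv1 had failed estimates and were left out, so the most abundant envelope protein gene, loricrin, has no value here.

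The late cornified envelope 1 genes lie in a cluster on chromosome 3 and are among the most abundant transcripts of these libraries. All 12 differed little, between -0.01 and 0.57, with a median of 0.14, which was -0.04 without subtracting the median of all genes. The summed level of the 12 was 57291 FPKM in the control and 57100 in the library labelled mutant. Lce1m was the most abundant, at 14643 and 13307 FPKM. These genes are near-identical, so reads can be split among them, and their sum is more secure than any one of them. The same 12 genes had medians of -1.87 in dermis and -3.73 at E16.5. Late cornified envelope 3 genes were much lower in level, and Lce3f (5.72 and 13.55 FPKM) and Lce3b (0.9 and 2.58) were 2-fold higher, by 1.29 and 1.09.

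The small proline-rich proteins cross-bridge the envelope, and their genes differed in both directions. Sprr1b (chr3:92240731-92242701 on mm9) was 14.93 FPKM in the control and 174.7 in the library labelled mutant, a difference of 3.64, the widest positive difference among the ranked genes with a value above 0 in both libraries. Sprr2a2 was 19.6 and 118.1 FPKM, a difference of 2.71, Sprr2d 36.58 and 88.75 FPKM, a difference of 1.43, and Sprr2h 24.07 and 45.08 FPKM, a difference of 1.06. Sprr1a, the close relative of Sprr1b, was lower, at 101 and 37.26 FPKM, a difference of -1.24, as did Sprr4 at 58.26 and 21.43 FPKM, a difference of -1.22. Of 11 kept members 4 were 2-fold higher and 2 were 2-fold lower, with a median of 0.78. The other members Sprr2b, Sprr2e, Sprr2f, Sprr2i and Sprr2j-ps lay between 0.22 and 0.81. The Sprr2 genes are near-identical copies, so reads can be split among them.

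Spinous layer genes lay in between. Krtdap and Dmkn, secreted proteins of that layer, differed by -0.15 and 0.35, and Calm4, a calcium-binding protein of differentiating cells, was 10246 and 10694 FPKM, a difference of 0.24. Krt77, a keratin of sweat duct and embryonic epidermis, was 46.6 and 120.2 FPKM, a difference of 1.53. Dsg1a, a desmosomal cadherin, was 144.6 and 54.98 FPKM, a difference of -1.20, and Skint3, of the Skint family, 6.66 and 1.92 FPKM. Krt1 and Krt10, the defining spinous keratins, were listed at 0 in both libraries with failed estimates.

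Cell junctions split by type. In the desmosome list of 12 kept genes 4 were at least 2-fold lower and none was 2-fold higher, and all 4 were desmogleins: Dsg1a, Dsg1b (74.71 and 32.28 FPKM), Dsg1c (20.05 and 5.26) and Dsg3 (2.24 and 0.41). The plaque genes Pkp1 (734.8 and 881.9 FPKM), Jup (1502 and 1552) and Dsp (589 and 495.1) differed by 0.44, 0.23 and -0.07. Of 13 kept tight junction genes 3 were 2-fold higher and none 2-fold lower, against 3.49% and 4.86% of all genes. Their median was 0.54. Cldn23 was 14.67 and 49.17 FPKM, a difference of 1.86, and Cldn4 151 and 281.6 FPKM, a difference of 1.07. Among connexins, the channels of gap junctions, Gjb2 was 48.51 and 121.4 FPKM, a difference of 1.48, while Gja1 (177.4 and 207.5 FPKM) differed by 0.40.

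Barrier lipid genes were mostly higher. The 27 kept members of the acylceramide list had a median of 0.42, with 4 at least 2-fold higher and 2 at least 2-fold lower. Of all genes between 100 and 1000 FPKM, 8.7% were higher and 4.07% lower, and their median was 0.22. Without subtracting the median of all genes, the list median was 0.24. The lipoxygenases Aloxe3 (167.6 and 375.6 FPKM, a difference of 1.34) and Alox12b (463.2 and 906.1, a difference of 1.14) oxidise the linoleate of acylceramides. Elovl1, which lengthens fatty acids, was 562.6 and 1228 FPKM, a difference of 1.3, and Cyp4f39, a fatty acid hydroxylase, 94.64 and 196.9 FPKM, a difference of 1.23. Alox12e (75.45 and 19.47 FPKM) and Degs2 (46.17 and 17.15), a desaturase that makes phytoceramide, had differences of -1.72 and -1.20.

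Of 4 kept cytosolic phospholipase genes, whose products release arachidonic acid, 3 were at least 2-fold higher. Pla2g4e was 5.45 and 28.97 FPKM, a difference of 2.39, Pla2g4b 14.35 and 36.82 FPKM, a difference of 1.48, and Pla2g4f 132.5 and 256.4 FPKM, a difference of 1.13. The fourth, Pla2g4a, was 3.64 and 2.85 FPKM, a difference of -0.09. Ptges, a prostaglandin E synthase, was 19.46 and 36.74 FPKM, a difference of 1.06. Of 13 kept genes of this list 4 were 2-fold higher, and the 2 that were 2-fold lower were Alox5 and Alox5ap.

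Proteases and inhibitors that control the shedding of corneocytes had a median of 0.52 over 20 kept members, with 2 at least 2-fold higher and none 2-fold lower. Of all genes 3.49% were higher, and of those between 100 and 1000 FPKM 8.7%, so this count is near the background. The 2 were Prss27 (15 and 30.88 FPKM) and Spint1 (41.07 and 82.25), an inhibitor of membrane serine proteases, with differences of 1.17 and 1.16. The kallikreins Klk5 (638.9 and 746.6 FPKM) and Klk7 (810.8 and 1023), which cut corneodesmosomes, differed by 0.40 and 0.51. Outside the list, the serine protease Prss22 was 19.37 and 105.3 FPKM, a difference of 2.56.

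Transcription factors of differentiation had a median of 0.40 over 27 kept genes, with 2 at least 2-fold higher and Trp63 the 1 that was 2-fold lower. Elf5, an ETS factor, was 1.39 and 4.3 FPKM, a difference of 1.33, and Dlx5, a homeobox factor, 10.81 and 24.87 FPKM, a difference of 1.31. Klf4, which drives late differentiation, was 274.7 and 320.1 FPKM, a difference of 0.40. Of the EGF receptor ligands Areg was 0.24 and 2.19 FPKM, a difference of 1.54, and Tgfa 9.06 and 13.93 FPKM, a difference of 0.75.

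Stefin A genes, which encode inhibitors of cysteine proteases, were lower as a group although keratinocytes of the upper layers express them. All 9 kept members were below 0, 7 were at least 2-fold lower, and the median was -1.26. BC100530 was 3950 FPKM in the control and 999.5 in the library labelled mutant, a difference of -1.80. Stfa1 (chr16:36277234-36285457 on mm9) was 1084 and 190 FPKM, a difference of -2.33, and Stfa3 3063 and 1320 FPKM, a difference of -1.04. The median was -1.51 in dermis and -2.28 at E16.5. These copies are near-identical, and their summed level was 8666 FPKM in the control and 2751 in the library labelled mutant.

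Defence genes showed no single direction. Defb14, a beta-defensin, was 9.48 and 1.53 FPKM, a difference of -1.87, while the peptidoglycan recognition genes Pglyrp3 (2.37 and 5.95 FPKM, a difference of 1.22) and Pglyrp4 (6.57 and 13.16 FPKM) were both at least 2-fold higher. Ccl27a, a skin-homing chemokine of keratinocytes, was 24.49 and 4.54 FPKM, a difference of -2.02. The 12 kept interleukin 1 and 36 family genes had a median of 0.15, and Il1f10 alone passed 2-fold, at 10.35 and 21.91 FPKM. Of 9 kept interferon response genes none was 2-fold higher and 1 was 2-fold lower, Ifi27l2a, at 4.81 and 0.85 FPKM, a difference of -1.47, and their median was -0.08.

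Cyp26b1 itself (chr6:84521408-84543902 on mm9) was 4.97 FPKM in the control and 13.68 in the library labelled mutant, a difference of 1.48. Both RefSeq transcripts contributed, with NM_001177713 at 4.97 and 11.79 FPKM and NM_175475 at 0 and 1.89 FPKM. A whole-transcript FPKM does not read the floxed exons, and the labels do not name them, so the higher level neither checks the label nor measures functional enzyme. In dermis Cyp26b1 was 54.16 FPKM in the control and 101.7 in the library labelled mutant, and at E16.5 34.95 and 58.16, differences of 0.77 and 0.29.

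Retinoic acid is known to raise a set of feedback genes, and of 14 such genes 7 were kept in epidermis. Crabp2, which delivers retinoic acid to its receptors, was 142.4 and 234.1 FPKM, a difference of 0.89, and Dhrs3, which reduces retinal, 60.69 and 95.17 FPKM, a difference of 0.82. Rarres1 was 32.11 and 49.22 FPKM, a difference of 0.78. Nrip1, a nuclear receptor corepressor, was lower, at 4.97 and 0.52 FPKM, a difference of -1.80, and Rarres2 was 2.93 and 1.6 FPKM, a difference of -0.42. The 7 include Cyp26b1 itself, described above. Their median was 0.82, with 2 at least 2-fold higher and 1, Nrip1, at least 2-fold lower.

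Other textbook targets were below 1 FPKM in both epidermis libraries. Rarb, a receptor and direct target, was 0.2 and 0.3 FPKM, and Stra6, a retinol transporter, 0.01 and 0.39 FPKM, while at E16.5 these genes were 2.98 and 32.02 FPKM and 1.47 and 44.75 FPKM. Cyp26a1 was 0.22 and 0 FPKM. None of 12 kept genes of retinoid synthesis, storage and transport passed 2-fold either way. The largest in that list was Rdh12, a retinal reductase, at 90.31 and 152.6 FPKM, a difference of 0.93. None of 13 kept nuclear receptor and partner genes passed 2-fold, with Rarg, the main retinoic acid receptor of epidermis, at 123.4 and 152.4 FPKM and Rxra at 129.6 and 137.5 FPKM. With 3.49% of all genes higher and 4.86% lower, counts of 0 in lists of this size are near the background.

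The epidermis was then set beside the dermis and E16.5 skin. In dermis 1871 of 13398 kept genes were at least 2-fold higher, 14.0%, and 1856 were at least 2-fold lower, 13.9%. At E16.5, where each column pools 2 libraries, 236 of 14154 were higher, 1.67%, and 403 lower, 2.85%. The Spearman correlation of the epidermis fold with the dermis fold was 0.04 across 10838 genes, and with the E16.5 fold -0.01 across 10878 genes, both across genes and as descriptions. These comparisons share no control library.

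Among 10528 genes kept in every table, 496 were at least 2-fold lower in epidermis and 1572 in dermis. The 181 genes in both made up 36.5% of the epidermis genes and 11.5% of the dermis genes, where 14.9% of all these genes were lower in dermis. In the other direction, 294 were higher in epidermis and 1339 in dermis, and 45 in both, 15.3% of the epidermis genes and 3.36% of the dermis genes, where 12.7% of all were higher in dermis. With E16.5 skin, 48 lower genes were shared, 9.68% of the epidermis genes and 21.8% of the E16.5 genes, where 2.09% of all were lower at E16.5. Of the higher genes 18 were shared, 6.12% and 18%, where 0.95% of all were higher at E16.5. No test was made of these overlaps. Of 4 kept sex-linked genes in dermis, 3 were at least 2-fold higher and 1 at least 2-fold lower. In epidermis 2 of 3 were higher and 1 lower, and at E16.5 0 of 5 passed 2-fold. Whether the dermis embryos also differed in sex, and whether that bears on the shared genes, was not tested.

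At least 2-fold lower in all 3 tables were 39 genes, and 3 were higher. Follicle keratins were among the 39, which also held short RNA genes such as Mir207, at 181.4 FPKM and listed at 0 in epidermis. Krt71 had log2 differences of -4.28 in epidermis, -5.87 in dermis and -5.68 at E16.5, and Krt35 of -2.96, -5.75 and -2.45. Stfa1 (-2.33, -1.70 and -2.28), Krt14 (-2.04, -2.06 and -1.21), Lhx2 (-2.0, -1.90 and -1.42), S100a3 (-2.04, -3.88 and -3.29) and Sprr1a (-1.24, -6.75 and -1.39) were also among them. So was Grm4, a glutamate receptor gene, with 14.49 and 0.71 FPKM in epidermis and differences of -3.00, -2.89 and -1.71. The 3 higher genes were Gsta4, a glutathione transferase for lipid aldehydes (35.17 and 116.3 FPKM in epidermis, with differences of 1.88, 2.23 and 1.71), Mall (41.63 and 116.6 FPKM, with 1.64, 1.40 and 1.33) and the microRNA gene Mir330, listed at 0 in control epidermis. Gsta4, Mall, Grm4, Mir330 and the genes of the 39 were taken from this overlap after their values were seen.

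**Figure D4:**
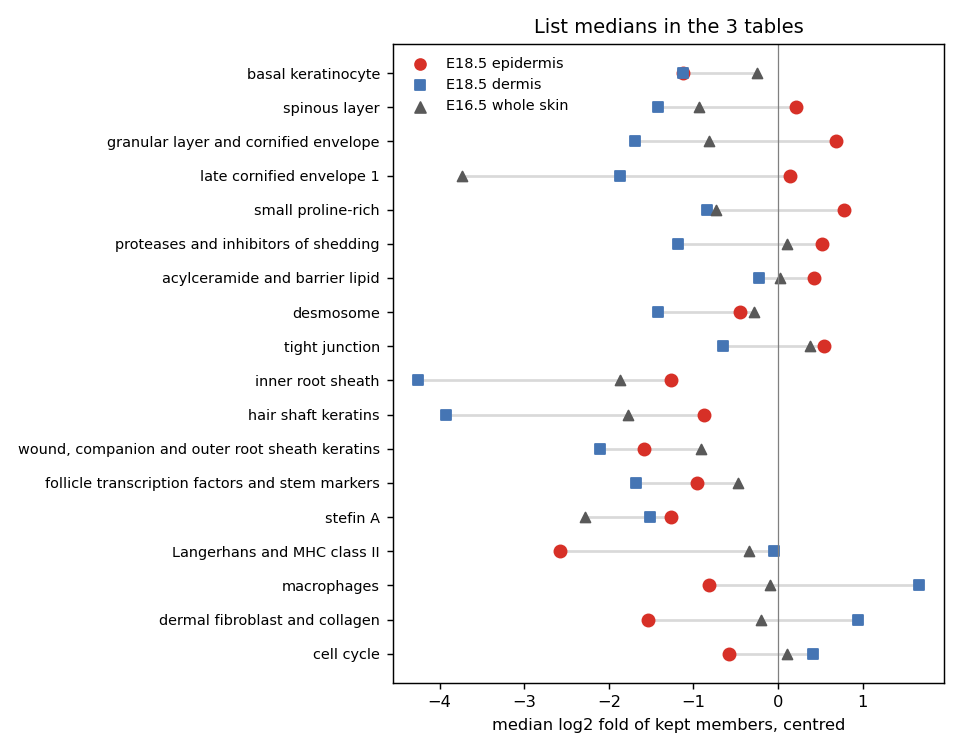
Median centred log2 fold of the kept members of 18 lists in E18.5 epidermis (red circles), E18.5 dermis (blue squares) and pooled E16.5 whole skin (grey triangles), each relative to the median of its own table. Inner root sheath and stefin A lists lie below 0 in every table, while the granular list lies above 0 in epidermis and below 0 in the other tables.

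The remaining genes at the ends of the ranking belonged to no list above. On the lower side, Nbl1, a secreted BMP antagonist, was 16.49 and 1.65 FPKM, a difference of -2.54, and Foxn3, a forkhead repressor, 10 and 0.76 FPKM, a difference of -2.47. Cryba2, a lens crystallin, was 6.87 FPKM and listed at 0. On the higher side, Cyp2b19, a keratinocyte arachidonic acid epoxygenase, was 53.36 and 250.5 FPKM, a difference of 2.39. Krt12, the keratin of corneal epithelium, was 10.94 and 41.41 FPKM, a difference of 2.01. H2-T9, an MHC class I relative with near-identical copies, was 5.53 and 31.0 FPKM, Catsperg1 2.52 and 15.3, Dbil5 0.56 and 5.54, AA465934 5.11 and 24.58, Ankrd24 9.53 and 38.7, Snx22 6.2 and 25.18, Trim72 3.41 and 14.71, and Ano8 31.85 and 111.3 FPKM. Ndufs5, a subunit of respiratory complex I, was listed at 0 in the control and 7.36 in the library labelled mutant, while 76 kept respiratory chain genes had a median of -0.17.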

How the data were processed

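RNA sequencing tables of control and En1cre;Cyp26b1f/- epidermis at E18.5 were used, with the dermis and E16.5 skin tables beside them. Per the labels' protocols, Trizol was used for total RNA and the Illumina TruSeq RNA kit for libraries. The build was mm9 and the tools were Cuffdiff 1.3.0, Cufflinks, TopHat 1.3.2 and Bowtie 0.12.7.0, per the submitters' processing notes, with no settings given in the sources used here. Strand handling is not given in the sources used here, so overlapping and antisense genes cannot be told apart. The authors deposited 1 FPKM value per RefSeq transcript and group, and each table was normalised by itself. The test statistic is a score deposited by the authors, and it served only to derive the model standard error. In the authors' deposited table, 762 epidermis transcripts are marked significant, 194 higher and 568 lower; these marks rest on 1 library per group and were not used. No column of another sample was present.

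FPKM were summed per symbol, and 194 symbols with a failed, too high or too low estimate were dropped. The pseudocount of 1 understates the differences of low genes. The deposited starts count from 0, since among 1103 genes for olfactory receptors 812 began 1 base below their start in the GENCODE annotation of the same build and 6 at it, so 1 was added. The members and the 72 gene lists were chosen with earlier results of these data known. The genes named were Cyp26b1, the 15 highest and 15 lowest folds among genes of at least 5 FPKM (symbols with several transcripts, short RNAs, predicted and sex-linked genes left out), and from each list up to 6 members with the largest fold, up to 4 with the highest control level, and all where 12 or fewer were kept. Casp14, Cdsn, Col17a1, Fbln1, Itga3, Lama3, Padi4 and Tcf7l1 were named after their values were seen, as were the genes shared by the 3 tables. Promoter windows, of 27025 symbols, came from RefSeq on GRCm38.p6. The steps were run in Python 3.11.15, numpy 2.4.6 and pandas 2.3.3 and tested on simulated data. Values of a few list members are not reported here. Alternatives are given in the closing section.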

Additional observations from a re-analysis of the deposited data

Results flagged for a closer look

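Among lists with at least 5 kept genes in both tissues, 10 had median log2 differences of at least 0.5 in size and opposite sign in epidermis and dermis, each table centred on its own median and each with 1 library per group. Further lists had opposite signs with a smaller median or fewer genes, such as cell cycle (-0.58 and 0.41) and small proline-rich (0.78 over 11 genes and -0.84 over 4). These differences between tissues were not tested. Higher in epidermis and lower in dermis in the library labelled mutant were the granular and cornified envelope list (0.69 over 23 genes and -1.69 over 25), the proteases and inhibitors of shedding (0.52 over 20 and -1.18 over 15), the tight junction list (0.54 over 13 and -0.65 over 15), the connexins (0.60 over 7 and -0.57 over 8) and the epidermal alarm list of keratinocyte stress genes (0.75 over 9 and -0.55 over 9). The alarm list was mixed in epidermis. Of its 9 kept genes 3 were at least 2-fold higher and 2 at least 2-fold lower, between -2.1 and 3.64. Its summed level was 413 FPKM in the control and 360.1 in the library labelled mutant.

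Lower in epidermis and higher in dermis were the fibroblast and collagen list (-1.54 over 20 and 0.94 over 20), the mast cell list (-1.09 over 6 and 1.12 over 8), the macrophage list (-0.82 over 12 and 1.67 over 13), the skeletal muscle list (-0.61 over 12 and 1.60 over 21) and the S100 list (-0.59 over 9 and 1.02 over 11). The dermis value of the fibroblast and collagen list leaves out Col1a1, Col1a2 and Col3a1.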

How the results depend on the processing

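No paired analysis was possible because each group has 1 library and the labels give the epidermis libraries different numbers, and for the same reason no replicate could be left out. The alternatives with short RNA genes or the genes of other cell types left out, and centring within bins of transcript GC content, were chosen after seeing the data. The 396 genes at least 2-fold higher became 185 with a pseudocount of 5 FPKM, 259 with a minimum of 5 FPKM, 260 without centring and 809 with each transcript taken by itself. The 552 lower genes became 1394 and 167 with pseudocounts of 0.1 and 5 FPKM, 915 without centring, 853 when centred on genes of at least 10 FPKM and 864 by transcript. With pseudocounts of 0.1 and 5 FPKM the list medians were -2.39 and -0.61 for inner root sheath, -1.77 and -0.25 for hair shaft keratins, -3.56 and -1.51 for MHC class II, -2.05 and -0.78 for fibroblast and collagen, and -1.36 and -0.39 for follicle transcription factors. With 5 FPKM they were -0.80 for basal keratinocyte, 0.36 for small proline-rich and -0.57 for Hedgehog genes. With a minimum of 5 FPKM they were -2.17 for inner root sheath, -1.96 for hair shaft keratins and -4.23 for MHC class II. Without a filter they were 0.42 for small proline-rich, 0.41 for retinoic acid response and -0.36 for Hedgehog genes. By transcript the MHC class II median was -2.95, and within GC bins the stefin A median was -0.90. Of 115 named genes at least 2-fold apart, all 115 kept their direction under the alternatives run for them, and 69 stayed past 2-fold. These genes were chosen as past 2-fold in the same 2 libraries. The alternatives rescale, recentre or filter the same values, so the kept direction was nearly fixed in advance and is no check. The transcript alternative was not run for single genes. Where not shown by the setting itself, the cause was not tested. Depth is known only roughly, so differences of genes near 1 FPKM are the least secure.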

Other observations

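Further groups had the following values in the control and in the library labelled mutant. Metallothioneins, which bind zinc and copper, were lower: Mt2 was 150 and 25.87 FPKM, a log2 difference of -2.31, and Mt4, the form of stratified epithelia, 121 and 29.69 FPKM, a difference of -1.81. Of 22 kept Hox genes, which set position along the body, 19 were above 0, with a median of 0.41. Hoxd4 was 2.28 and 7.13 FPKM, Hoxd3 0.46 and 2.14, and Hoxb6 4.7 and 9.44, differences of 1.49, 1.28 and 1.05.

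Sebaceous gland genes split. Awat1, a wax ester synthase, was 9.09 and 17.86 FPKM, and Far2, a fatty acyl-CoA reductase, 7.26 and 15.44 FPKM, a difference of 1.17 for the latter, while the median of the 11 kept genes was 0.03. Of 14 kept imprinted genes 4 were at least 2-fold lower, among them Peg3 (4.72 and 0.45 FPKM), Dlk1 (9.87 and 1.87) and the non-coding Meg3 (17.35 and 5.11). The pigment cell gene Mlana was 15.07 and 4.67 FPKM, a difference of -1.32.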
